A study of Homo sapiens with 12 samples.

Results

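Translation initiation factors load the initiator tRNA onto the small ribosomal subunit, bring that subunit to the cap of the mRNA, scan to the start codon and join the large subunit. The genes described here are those whose symbol starts with EIF and a digit, without the EIF2AK kinases, and whose mean normalized count over all 12 libraries was at least 10. They number 52 of the 15376 genes that reached this minimum, out of 36601 genes in the table. Of 55 genes with such a symbol, 3 lay under the minimum, among them EIF4E1B with a mean of 0.0813 and EIF1AX-AS1 with a mean of 0.170. The third is a Y-linked gene whose level is not given. Of the 52 genes, 50 encode proteins and 2, EIF1B-AS1 and EIF3J-DT, are noncoding. EIF4EBP1, EIF4EBP2 and EIF4EBP3, which encode inhibitors and not factors, were kept because they carry the name.

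RNA of KP4 cells, an established line of pancreatic ductal cell carcinoma labelled wild type, was sequenced after ribosomal RNA removal. The cells received DMSO, 10 mM metformin (Met), 5 nM FK866 (FK) or both drugs together (Met+FK) for 24 h, with 3 libraries per treatment and DMSO as the control. Metformin is a biguanide that inhibits complex I of the respiratory chain, and FK866 inhibits NAMPT, the enzyme that recycles nicotinamide into NAD. The comparisons ask what each drug does to the transcripts and whether FK866 changes the response to metformin.

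In eukaryotic initiation, eIF2 carries the initiator tRNA and is recharged with GTP by the exchange factor eIF2B. The large scaffold eIF3 holds the small subunit, and eIF4F, made of the cap-binding protein eIF4E, the scaffold eIF4G and the helicase eIF4A, recruits it to the cap. The 4E-BP proteins hold eIF4E away from eIF4G unless mTORC1 phosphorylates them, and stress kinases slow initiation by phosphorylating the alpha subunit of eIF2. Both controls act on proteins, and the values here are transcript levels.

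Libraries held 30667735 to 41052203 read pairs, and the values are counts of read pairs divided by a size factor per library, called normalized counts. Of the lists of marker genes, 7 of 8 ductal epithelial and 5 of 6 mesenchymal genes had a mean of at least 10 over all libraries, with VIM, an intermediate filament gene of mesenchymal cells, at 115708 and KRT18, a keratin of simple epithelia, at 18307 in DMSO. EPCAM, an epithelial adhesion gene, was under that minimum, with a mean of 7.69 in DMSO. None of 4 acinar and none of 4 endocrine genes reached a mean of 10. Of 3 endothelial genes VWF alone reached a mean of 10. Of genes known from leukocytes, PTPRC had a mean of 244 in DMSO, 161 in Met, 244 in FK and 134 in Met+FK, CD68 had 944, 776, 754 and 840 in this order, and CD3E, a T cell gene, reached at most 0.338. The summed ductal list had a mean of 25721 in DMSO, 17906 in Met, 21396 in FK and 17629 in Met+FK. KRT18 carried most of that difference, with a mean of 10421 in Met. The other keratins of the list also had lower means in Met, namely KRT8 (3156 in DMSO and 2583 in Met), KRT7 (281 and 234) and KRT19 (56.5 and 23.3). CDH1 (28.5 in DMSO and 61.4 in Met), SOX9 (3781 and 4444) and MUC1 (104 and 127) had higher means in Met, as did EPCAM. The part of these differences in the results below was not tested.

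The factor genes differed widely in level. Per kilobase of transcript, the DMSO mean of normalized counts was highest for EIF4A1, the main eIF4A helicase, at 38631 ± 2224 (SD, n = 3), and for EIF5A, which helps the ribosome through difficult peptide bonds, at 38357 ± 2186 (SD, n = 3). These neighbours did not differ beyond their spread. EIF1, EIF4G2 and EIF3I followed at 12767, 12496 and 12223 per kilobase, and did not differ beyond their spread. EIF4E, the cap-binding subunit, lay far lower at 572 ± 84.4, below its relative EIF4E2 at 3894 ± 85.5. The 5 eIF2B genes kept within 647 and 1182 per kilobase. EIF3C stood at 124 and EIF3CL at 4.34 per kilobase, while the other eIF3 genes lay between 1038 and 12223. EIF3C and EIF3CL are near-identical copies, so reads that match them equally can be lost from the count of either, and their levels are uncertain.

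With metformin alone, 4 of 5 eIF2B genes and 6 of 11 genes of eIF4F, its cofactors and relatives fell, 3 of 4 eIF2 genes rose, and most eIF3 genes were not called. The main helicase and scaffold genes EIF4A1 and EIF4G1 were lower while their relatives EIF4A2 and EIF4G3 were higher. In limma-trend on log2(normalized count + 1), adjusted over all genes tested with the Benjamini-Hochberg method, 12 of the 52 genes rose and 19 fell against DMSO at an adjusted p under 0.05. Of all genes tested, 24.9% rose and 25.9% fell. The median log2 fold change was -0.12 over the 52 genes and 0.012 over all genes. With a fold change over 1.5 as well, 3 rose (EIF1B-AS1, EIF2S2 and EIF2S3B) and 8 fell (EIF1AD, EIF3B, EIF4A1, EIF4A3, EIF4E2, EIF4EBP2, EIF4G1 and EIF5A), beside 12.8% and 10.2% of all genes. Under scaling to equal library totals the split was 19 higher and 15 lower, beside 34.1% and 19% of all genes, and the median of all genes moved from 0.012 to 0.13. With the fold rule that scaling turned the balance round, with 6 higher (EIF1B-AS1, EIF2S2, EIF2S3B, EIF4A2, EIF4E3 and EIF4G3) and 2 lower (EIF4A3 and EIF5A), beside 18.4% and 6.67% of all genes. Of the 31 calls, 21 held without any single one of the 6 libraries compared, and the 10 that did not are named with their gene groups. With the trend on GC content and length removed, EIF2S3, EIF2S3B, EIF3D, EIF3I, EIF4E3, EIF4EBP3 and EIF5 were no longer called. The rise of EIF3H was lost there as well, with a log2 change of -0.014. The edgeR fit did not call EIF3D, EIF3I, EIF4EBP3 or EIF4G2, and DESeq2 did not call EIF2S3B, EIF3D, EIF3I or EIF4E3. In RNA of whole cultures, fewer cells with a transcript and less of it per cell cannot be told apart.

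**Figure D1:**
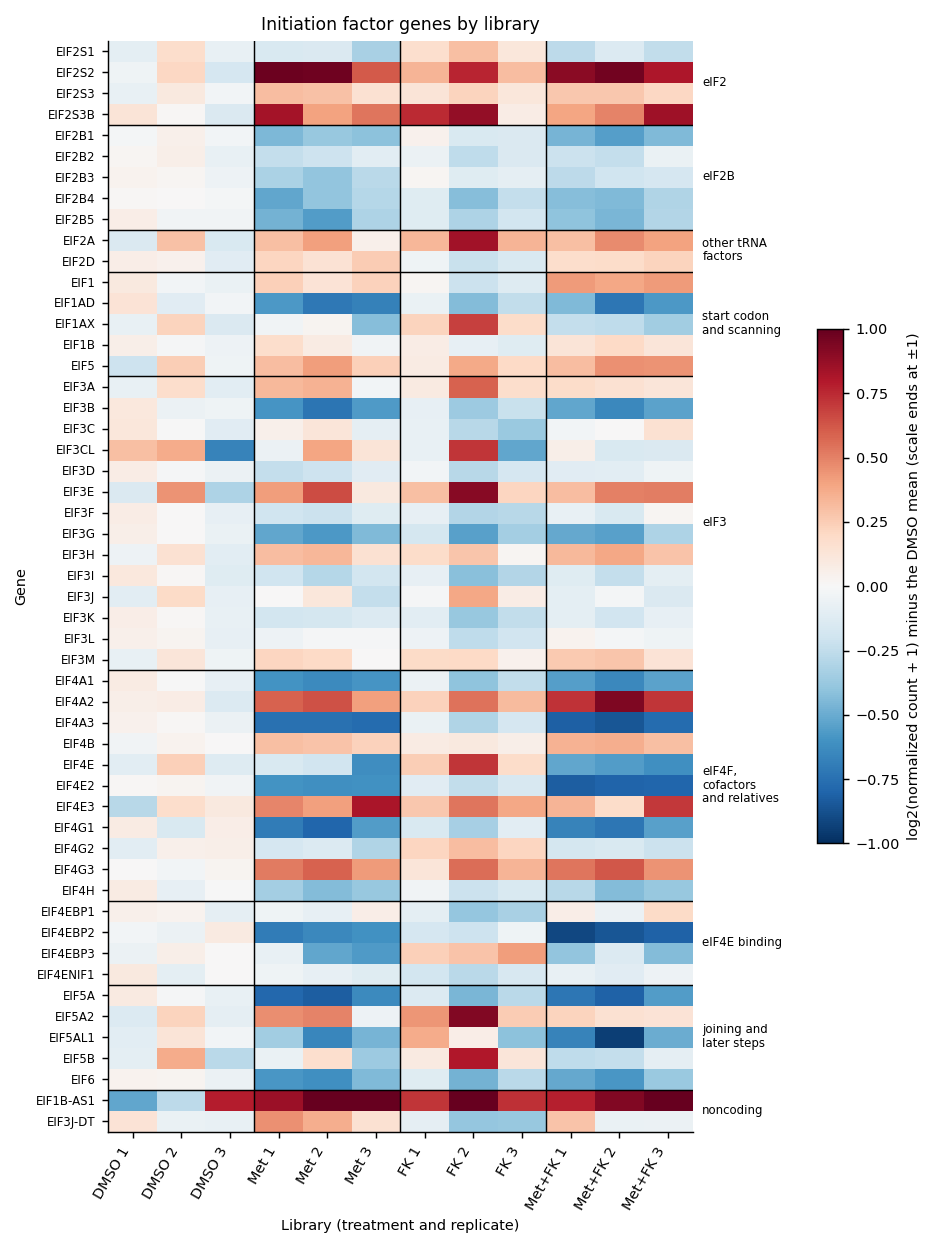
Log2(normalized count + 1) of each of the 52 genes minus its DMSO mean, with 1 column per library and genes grouped by role. EIF2S2 is red in all Met and Met+FK libraries and EIF4A3, EIF4E2 and EIF4EBP2 are blue in them, while the eIF3 block mixes red and blue.

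The eIF2 subunits did not move together. EIF2S2, the beta subunit of the tRNA carrier (chr20:34088309-34112243, hg38), had normalized counts of 5332, 6333 and 4886 in the DMSO libraries, 10819.7, 10753 and 8398 in the Met libraries, 6951, 9298 and 6807 in the FK libraries and 10232, 10682 and 9587 in the Met+FK libraries. Every Met and Met+FK library lay above every DMSO library, and the lowest FK library also lay above them. EIF2S2 rose with a log2 change of 0.86 ± 0.13 (SE, adjusted p = 7.44e-05) in Met and of 0.42 ± 0.13 (SE, adjusted p = 0.0164) from FK to Met+FK. The latter call was lost without FK replicate 1, FK replicate 3 or Met+FK replicate 2 (adjusted p = 0.0603 to 0.0758).

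EIF2S1, the alpha subunit that stress kinases phosphorylate, had 6340.3, 7654 and 6428 in the DMSO libraries, 6107, 6137 and 5415 in the Met libraries, 7621, 8364 and 7348 in the FK libraries and 5647, 6182 and 5722 in the Met+FK libraries. Its Met+FK libraries were all below its FK libraries, and its Met libraries lay just below the DMSO libraries. It fell by 1.33-fold from FK to Met+FK, a log2 change of -0.41 ± 0.086 (SE, adjusted p = 0.00141), and was not called in Met (adjusted p = 0.0567). EIF2S3, the gamma subunit, rose in Met with a log2 change of 0.25 ± 0.067 (SE, adjusted p = 0.00587). EIF2S3B, a copy of EIF2S3 with few reads, had 31.2, 28.6 and 25.6 in the DMSO libraries, 51.2, 37.8 and 41.6 in the Met libraries, 48.1, 53.1 and 29.8 in the FK libraries and 37.6, 40.4 and 51.7 in the Met+FK libraries. Its lowest Met library was above its highest DMSO library by a few reads, with a log2 change of 0.59 ± 0.23 (SE, adjusted p = 0.0426). Without DMSO replicate 1, 2 or 3 or Met replicate 1 or 3 that call was lost (adjusted p = 0.0571 to 0.154), and its reads may belong in part to EIF2S3.

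All eIF2B genes were lower in Met by their estimate, and 4 of 5 were called, beside 25.9% of all genes called lower. EIF2B5, the catalytic subunit, fell with a log2 change of -0.45 ± 0.082 (SE, adjusted p = 0.000429), and EIF2B1, a regulatory subunit, of -0.41 ± 0.074 (SE, adjusted p = 0.000334). EIF2B4 and EIF2B3 fell with log2 changes of -0.40 and -0.33, and EIF2B2 was not called (adjusted p = 0.0616). From FK to Met+FK only EIF2B1 of the 5 was called, at -0.40 ± 0.074 (SE, adjusted p = 0.000540). Whether this differs from the change without FK866 is tested by the interaction, in which no eIF2B gene was called without blocks and EIF2B5 was called in the fit with blocks of same-numbered libraries. Of the other factors that can bring a tRNA to the ribosome, EIF2D rose in Met with a log2 change of 0.20 ± 0.075 (SE, adjusted p = 0.0357) and of 0.33 ± 0.075 (SE, adjusted p = 0.00249) from FK to Met+FK. The first of these calls was lost without DMSO replicate 3, Met replicate 1 or Met replicate 3 (adjusted p = 0.0895 to 0.167). EIF2A was not called in either.

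Genes of factors that select the start codon, and of relatives by name, gave mixed changes. EIF1, which guards the fidelity of start codon choice (chr17:41688885-41692668, hg38), had 31898, 29193 and 28457 in the DMSO libraries, 35137, 32749.8 and 34990.0 in the Met libraries, 30189, 25635 and 27265 in the FK libraries and 40108, 38886 and 39961 in the Met+FK libraries. Its Met+FK libraries were above all others, and its Met libraries lay just above the DMSO libraries. EIF1 rose with a log2 change of 0.20 ± 0.070 (SE, adjusted p = 0.0259) in Met and of 0.52 ± 0.070 (SE, adjusted p = 3.22e-05) from FK to Met+FK. The call in Met was lost without DMSO replicate 2 or 3 or Met replicate 1 or 3 (adjusted p = 0.0637 to 0.100), while that from FK to Met+FK held without each library.

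EIF1AD, named for its likeness to eIF1A, had 1984, 1676 and 1779 in the DMSO libraries, 1217, 1101 and 1134 in the Met libraries, 1724, 1339 and 1524 in the FK libraries and 1334, 1093 and 1216 in the Met+FK libraries. Its Met libraries lay below all DMSO libraries and it fell with a log2 change of -0.65 ± 0.10 (SE, adjusted p = 0.000132) in Met. From FK to Met+FK it fell with a log2 change of -0.33 ± 0.10 (SE, adjusted p = 0.0195), a call lost without FK replicate 1 or Met+FK replicate 2 (adjusted p = 0.0922 to 0.0989). EIF1AX, the scanning factor eIF1A, had 5590.2, 6873 and 5329 in the DMSO libraries, 5737, 5992 and 4385 in the Met libraries, 6859.9, 9483 and 6677 in the FK libraries and 4999.6, 4954 and 4625 in the Met+FK libraries. Met and DMSO overlapped for this gene, and Met+FK lay below FK in every library. It fell with a log2 change of -0.64 ± 0.14 (SE, adjusted p = 0.00181) from FK to Met+FK and was not called in Met (adjusted p = 0.394).

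EIF1B, a close relative of EIF1, had 1905, 1821 and 1774 in the DMSO libraries, 2066, 1941 and 1791 in the Met libraries, 1934, 1730.5 and 1684 in the FK libraries and 2002, 2106 and 1997 in the Met+FK libraries. DMSO and Met overlapped, Met+FK lay just above FK, and the gene was not called in any comparison. EIF5, which triggers GTP hydrolysis on eIF2, rose in Met with a log2 change of 0.32 ± 0.11 (SE, adjusted p = 0.0194). That call was lost without DMSO replicate 1, DMSO replicate 3 or Met replicate 2 (adjusted p = 0.0609 to 0.113).

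Most of the 14 eIF3 genes did not pass the test. In Met 1 rose and 4 fell, beside 24.9% and 25.9% of all genes. From FK to Met+FK 1 rose and 1 fell, beside 20.5% and 21.7% of all genes. EIF3B, a core scaffold subunit (chr7:2354086-2380745, hg38), had 22759, 20316 and 20537 in the DMSO libraries, 14081, 12776 and 14315 in the Met libraries, 20012, 16503 and 18163 in the FK libraries and 14806, 13563 and 14631 in the Met+FK libraries. Every library with metformin was below every library without it, and EIF3B fell with a log2 change of -0.63 ± 0.080 (SE, adjusted p = 1.77e-05) in Met and of -0.34 ± 0.080 (SE, adjusted p = 0.00296) from FK to Met+FK. EIF3G, an RNA-binding subunit, had 8435, 8130.4 and 7726 in the DMSO libraries, 5659.6, 5426 and 5973 in the Met libraries, 7178, 5566 and 6393 in the FK libraries and 5661, 5540.0 and 6516 in the Met+FK libraries. It was highest in DMSO, and the FK libraries ranged from within the Met values to just under those of DMSO. EIF3G fell with a log2 change of -0.51 ± 0.092 (SE, adjusted p = 0.000344) in Met and was not called from FK to Met+FK (adjusted p = 0.372).

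The other eIF3 calls in Met were smaller. EIF3H rose with a log2 change of 0.26, and EIF3D and EIF3I fell with log2 changes of -0.19 and -0.22. All 3 calls were lost when any of 4 libraries was left out, namely Met replicate 1 or 2 or DMSO replicate 1 for each of them, with DMSO replicate 3 for EIF3H and DMSO replicate 2 for EIF3D and EIF3I (adjusted p = 0.0602 to 0.0784 for EIF3H, 0.0625 to 0.145 for EIF3D and 0.0758 to 0.165 for EIF3I). With the dependence on GC content and length removed, EIF3H changed sign. From FK to Met+FK the rising gene was EIF3C at 0.28 ± 0.11 (SE, adjusted p = 0.0482), which was lost without 5 of the 6 libraries (all but FK replicate 1, adjusted p = 0.0621 to 0.181), and the falling gene was EIF3B.

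The genes of eIF4F, its cofactors and relatives held the most calls, with 4 of 11 higher and 6 lower in Met. The shares of all genes were 24.9% and 25.9%. EIF4A1, the most abundant helicase (chr17:7572706-7579006, hg38), had 71906, 67742 and 64092 in the DMSO libraries, 44766, 43533 and 45011 in the Met libraries, 65121, 51239 and 57059.7 in the FK libraries and 46219.6, 43286 and 46779.7 in the Met+FK libraries. No library with metformin reached the lowest library without it. EIF4A1 fell with a log2 change of -0.61 ± 0.079 (SE, adjusted p = 2.02e-05) in Met, a 1.53-fold change, and of -0.34 ± 0.079 (SE, adjusted p = 0.00282) from FK to Met+FK.

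EIF4A2, the second helicase of the complex (chr3:186783205-186789897, hg38), went the other way. It had 11167, 11278 and 9731 in the DMSO libraries, 16133, 16674 and 14252 in the Met libraries, 12558, 15578 and 13330.5 in the FK libraries and 17693, 20392 and 17537 in the Met+FK libraries. The Met libraries were all above the DMSO libraries and the Met+FK libraries all above the FK libraries. EIF4A2 rose with a log2 change of 0.55 ± 0.095 (SE, adjusted p = 0.000256) in Met and of 0.43 ± 0.095 (SE, adjusted p = 0.00217) from FK to Met+FK. EIF4A3, a relative that works in the exon junction complex and not in eIF4F (chr17:80134369-80147151, hg38), had 6426, 6303 and 5998 in the DMSO libraries, 3718, 3716 and 3662 in the Met libraries, 5955, 5058 and 5542 in the FK libraries and 3548, 3451 and 3659.5 in the Met+FK libraries. Libraries with metformin lay in a narrow band far below the others. It fell with a log2 change of -0.75 ± 0.070 (SE, adjusted p = 9.27e-07) in Met and of -0.63 ± 0.070 (SE, adjusted p = 5.25e-06) from FK to Met+FK.

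EIF4G1, the main scaffold (chr3:184314495-184335358, hg38), had 56853, 48222 and 56303 in the DMSO libraries, 32949, 30923 and 36477 in the Met libraries, 48382, 42653 and 49993 in the FK libraries and 33834, 32534 and 36906 in the Met+FK libraries. Every library with metformin was below every library without it, and EIF4G1 fell with a log2 change of -0.68 ± 0.087 (SE, adjusted p = 1.73e-05) in Met and of -0.45 ± 0.087 (SE, adjusted p = 0.000768) from FK to Met+FK. EIF4G3, a second scaffold, had 4292, 4204 and 4373 in the DMSO libraries, 6158, 6456 and 5748 in the Met libraries, 4664, 6309.6 and 5431 in the FK libraries and 6216, 6591 and 5851 in the Met+FK libraries. Met and DMSO did not overlap, and FK reached into the range of Met+FK. EIF4G3 rose with a log2 change of 0.51 ± 0.094 (SE, adjusted p = 0.000414) in Met and was not called from FK to Met+FK (adjusted p = 0.109). EIF4G2, a scaffold that lacks the site for eIF4E, fell with a log2 change of -0.20 ± 0.066 (SE, adjusted p = 0.0189) in Met and of -0.42 ± 0.066 (SE, adjusted p = 0.000121) from FK to Met+FK. The call in Met was lost without DMSO replicate 2, DMSO replicate 3 or Met replicate 3 (adjusted p = 0.0628 to 0.0795).

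EIF4E, the cap-binding protein (chr4:98871684-98930637, hg38), had 1282, 1624 and 1257 in the DMSO libraries, 1239, 1204 and 894 in the Met libraries, 1639, 2259 and 1566 in the FK libraries and 962, 935 and 901 in the Met+FK libraries. The Met+FK libraries were far below the FK libraries, the highest of which was FK replicate 2, and Met and DMSO nearly met. EIF4E fell from FK to Met+FK with a log2 change of -0.95 ± 0.15 (SE, adjusted p = 0.000129), the largest fall of the 52 genes in that comparison, and was not called in Met, at -0.32 ± 0.15 (SE, adjusted p = 0.0793). EIF4E2, a cap-binding relative that represses translation, had 3788, 3836 and 3675 in the DMSO libraries, 2492, 2461 and 2476 in the Met libraries, 3487, 3179.6 and 3362 in the FK libraries and 2126, 2157 and 2168 in the Met+FK libraries. Its libraries formed 4 tight and separate groups, with DMSO highest and Met+FK lowest. EIF4E2 fell with a log2 change of -0.60 ± 0.064 (SE, adjusted p = 3.36e-06) in Met and of -0.64 ± 0.064 (SE, adjusted p = 2.09e-06) from FK to Met+FK.

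EIF4E3, the third cap-binding relative, had low normalized counts of 24.2, 33.5 and 31.7 in the DMSO libraries, 41.8, 39.7 and 52.8 in the Met libraries, 35.9, 43.3 and 39.0 in the FK libraries and 37.6, 33.8 and 48.8 in the Met+FK libraries. Met was above DMSO in all libraries, by a small number of reads, and FK and Met+FK overlapped. It rose with a log2 change of 0.57 ± 0.21 (SE, adjusted p = 0.0304) in Met, a call lost without DMSO replicate 1, Met replicate 1 or Met replicate 3 (adjusted p = 0.0505 to 0.126). Of the helicase cofactors, EIF4B rose with a log2 change of 0.27 ± 0.055 (SE, adjusted p = 0.000788) in Met and of 0.26 ± 0.055 (SE, adjusted p = 0.00147) from FK to Met+FK, and EIF4H fell in them with log2 changes of -0.38 ± 0.070 (SE, adjusted p = 0.000376) and -0.23 ± 0.070 (SE, adjusted p = 0.0161). The last of these calls was lost without FK replicate 1 or Met+FK replicate 2 (adjusted p = 0.0622 to 0.0758).

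**Figure D2:**
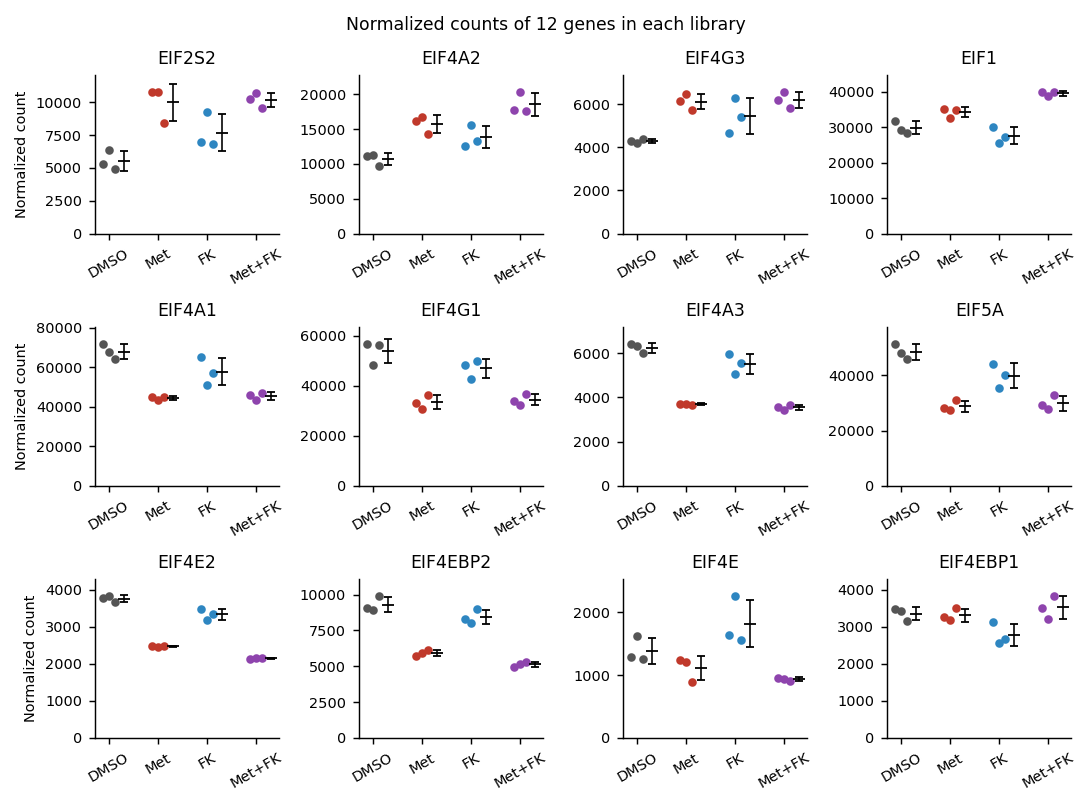
Normalized counts of 12 genes by treatment, with points for the 3 libraries and a bar for the mean and SD. EIF2S2, EIF4A2 and EIF1 were called higher with metformin in both comparisons and EIF4A1, EIF4G1, EIF4A3, EIF5A, EIF4E2 and EIF4EBP2 lower in both, EIF4G3 was called in Met and not from FK to Met+FK, and EIF4E and EIF4EBP1 separate mainly between FK and Met+FK.

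Genes whose proteins bind eIF4E differed among themselves. EIF4EBP2 (chr10:70404145-70428618, hg38) had 9099.7, 8906 and 9909 in the DMSO libraries, 5712, 5932 and 6113 in the Met libraries, 8279, 8056 and 9028 in the FK libraries and 4946, 5142 and 5317 in the Met+FK libraries. Its libraries with metformin were well below those without, and Met+FK was below Met in each library. EIF4EBP2 fell with a log2 change of -0.65 ± 0.069 (SE, adjusted p = 3.36e-06) in Met and of -0.72 ± 0.069 (SE, adjusted p = 1.41e-06) from FK to Met+FK. EIF4EBP1, the best known of the inhibitors, had 3467, 3434 and 3152 in the DMSO libraries, 3252, 3169 and 3502 in the Met libraries, 3125, 2559 and 2668 in the FK libraries and 3514, 3209 and 3826 in the Met+FK libraries. Met and DMSO overlapped fully and the Met+FK libraries were all above the FK libraries. EIF4EBP1 was not called in Met (adjusted p = 0.876) and rose from FK to Met+FK with a log2 change of 0.34 ± 0.090 (SE, adjusted p = 0.00702), which held without each of the 6 libraries.

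EIF4EBP3 had 156, 169 and 163 in the DMSO libraries, 155, 113 and 109.6 in the Met libraries, 192, 198 and 217 in the FK libraries and 123, 147 and 120.0 in the Met+FK libraries. Met replicate 1 came close to the DMSO libraries, and FK and Met+FK were apart. It fell with a log2 change of -0.38 ± 0.14 (SE, adjusted p = 0.0347) in Met and of -0.63 ± 0.14 (SE, adjusted p = 0.00226) from FK to Met+FK. The call in Met was lost without DMSO replicate 1, 2 or 3 or Met replicate 2 or 3 (adjusted p = 0.0561 to 0.125). The gene lies opposite SRA1, whose mean was 2367 against 155 for EIF4EBP3, and its reads cannot be told apart from those of SRA1 if strand was not used in counting. EIF4ENIF1, which carries eIF4E into the nucleus, was not called in any comparison.

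Among genes of the later steps, EIF5A (chr17:7306999-7312463, hg38) had 51416, 48103 and 45931 in the DMSO libraries, 28105, 27355 and 31074 in the Met libraries, 44132, 35296 and 40190.2 in the FK libraries and 29279.6, 27628 and 32853 in the Met+FK libraries. The libraries with metformin were all below those without. EIF5A fell with a log2 change of -0.75 ± 0.088 (SE, adjusted p = 9.13e-06) in Met, a 1.68-fold change, and of -0.41 ± 0.088 (SE, adjusted p = 0.00167) from FK to Met+FK. EIF5A2, its relative with far fewer reads, had 669, 860.1 and 692 in the DMSO libraries, 1014, 1037 and 710.2 in the Met libraries, 1000.5, 1400.5 and 879 in the FK libraries and 857, 819 and 811 in the Met+FK libraries. All FK libraries were above the DMSO and Met+FK libraries, Met overlapped DMSO, and EIF5A2 was not called in Met or from FK to Met+FK (adjusted p = 0.141 and 0.0857). EIF5AL1, an intronless copy of EIF5A whose reads may come in part from EIF5A, had 66.9, 78.8 and 70.6 in the DMSO libraries, 56.4, 45.4 and 51.7 in the Met libraries, 93.4, 75.2 and 54.0 in the FK libraries and 44.9, 37.1 and 50.7 in the Met+FK libraries. It fell with a log2 change of -0.71 ± 0.20 (SE, adjusted p = 0.0105) from FK to Met+FK, where the FK libraries were all above the Met+FK libraries, and the call was lost without FK replicate 1 or Met+FK replicate 2 (adjusted p = 0.0527 to 0.0568).

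EIF6, which keeps free large subunits from joining, fell with a log2 change of -0.54 ± 0.088 (SE, adjusted p = 0.000150) in Met. EIF5B, the factor of subunit joining, fell from FK to Met+FK with a log2 change of -0.53 ± 0.19 (SE, adjusted p = 0.0313). Without FK replicate 2, Met+FK replicate 1 or Met+FK replicate 2 the EIF5B call was lost (adjusted p = 0.0827 to 0.123). Of the noncoding genes, EIF1B-AS1, which lies beside EIF1B, had 13.8, 16.7 and 35.8 in the DMSO libraries, 37.6, 44.4 and 52.8 in the Met libraries, 34.0, 43.3 and 34.4 in the FK libraries and 35.5, 39.5 and 46.8 in the Met+FK libraries. DMSO replicate 3 lay close under the lowest Met library and the other DMSO libraries far below. EIF1B-AS1 rose with a log2 change of 1.09 ± 0.29 (SE, adjusted p = 0.00523) in Met, and was not called from FK to Met+FK (adjusted p = 0.763). EIF3J-DT was not called in any comparison.

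Related genes of the same role often moved unequally. For 6 pairs of paralogues, the log2 ratio of their normalized counts was taken within each library, where scaling between libraries plays no part. A dependence on GC content that differs between libraries does not cancel in such a ratio. GC content was 40.4% and 49.7% for EIF4A2 and EIF4A1, and 46.3% and 56.7% for EIF4G3 and EIF4G1. It was 44.7% and 62.9% for EIF4EBP2 and EIF4EBP1, and 33.9% and 56.6% for EIF5A2 and EIF5A. It was 42.6% and 46.45% for EIF1B and EIF1, and 50.4% and 34.5% for EIF4E2 and EIF4E. The part of GC content in the ratios was not tested. The ratio of EIF4A2 to EIF4A1 was -2.69, -2.59 and -2.72 in DMSO, -1.47, -1.38 and -1.66 in Met, -2.37, -1.72 and -2.10 in FK and -1.39, -1.09 and -1.42 in Met+FK. Each library with metformin was above each library without it. Libraries with metformin had a ratio higher by 0.96, or 1.95-fold (two-sided exact permutation test within FK866 status, p = 0.005, the smallest these 400 permutations allow, Benjamini-Hochberg over 6 pairs 0.0075). The difference was 1.16 without FK866 and 0.77 with it. Replicate 2 had the highest ratio of EIF4A2 to EIF4A1 in each treatment. It also had the lowest slope of log2 values on GC content in each (0.043 in DMSO, -0.139 in Met, -0.245 in FK and -0.048 in Met+FK). Same-numbered libraries of DMSO and FK, and of Met and Met+FK, deviated together. With those libraries moved together only 20 arrangements remain and the exact permutation test cannot go below p = 0.1, so none of the 6 pairs could pass (p = 0.1 for the 4 that passed before, adjusted 0.15).

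The ratio of EIF4G3 to EIF4G1 was -3.73, -3.52 and -3.69 in DMSO, -2.42, -2.26 and -2.67 in Met, -3.37, -2.76 and -3.20 in FK and -2.44, -2.30 and -2.66 in Met+FK. Met and Met+FK overlapped fully. Each library with metformin was above each library without it, and FK replicate 2 came nearest to them. With metformin it was higher by 0.92, or 1.89-fold (exact permutation p = 0.005, adjusted 0.0075), with 1.20 without FK866 and 0.64 with it. EIF4EBP2 fell relative to EIF4EBP1 by 0.84 (exact permutation p = 0.005, adjusted 0.0075), from ratios of 1.37 to 1.76 in libraries without metformin to 0.47 to 0.90 in those with it. The differences were -0.63 without FK866 and -1.06 with it.

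EIF1B relative to EIF1 was lower with metformin by a smaller amount, -0.23 (exact permutation p = 0.005, adjusted 0.0075), and was -0.13 without FK866 and -0.33 with it. EIF5A2 relative to EIF5A differed by 0.55 and did not pass (exact permutation p = 0.07, adjusted 0.084). Its difference was 1.05 without FK866 and 0.041 with it. EIF4E2 relative to EIF4E differed by 0.015 (exact permutation p = 0.93), with -0.28 without FK866 and 0.31 with it, so the estimates with and without FK866 had opposite signs.

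**Figure D3:**
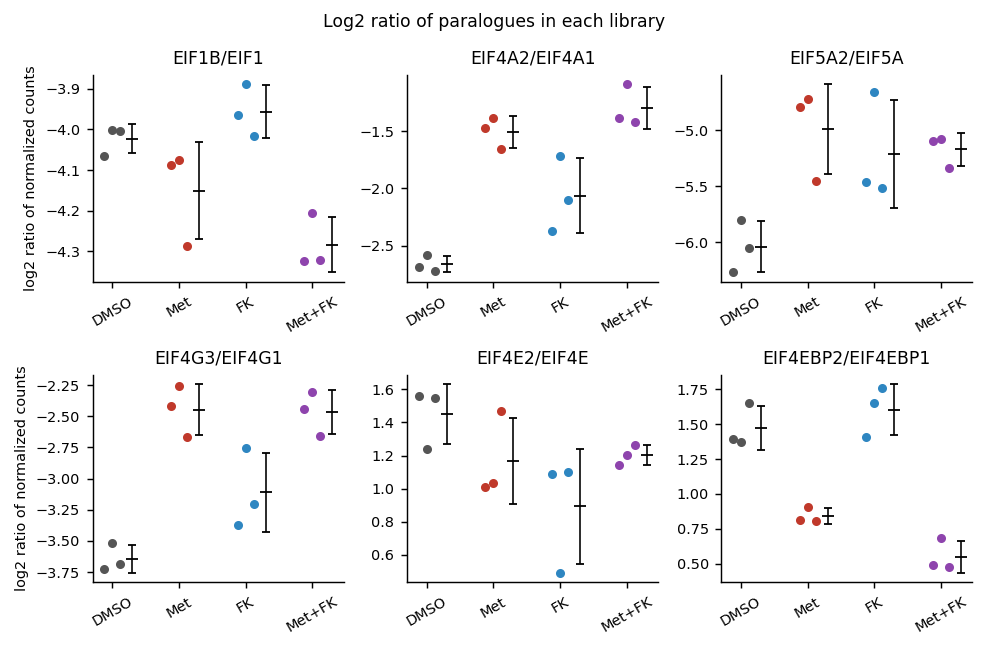
Log2 ratio of the normalized counts of 6 pairs of paralogues by treatment, with points for libraries and a bar for the mean and SD. The ratio of EIF4A2 to EIF4A1 lies between -2.72 and -2.59 in DMSO and between -1.66 and -1.38 in Met.

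Metformin was compared with its control a second time within FK866, in libraries that the first comparison did not use. Both comparisons came from the same fit with a shared estimate of the spread. Same-numbered libraries of DMSO and FK, and of Met and Met+FK, deviated together, so the comparisons are not independent. From FK to Met+FK, 7 of the 52 genes rose and 17 fell, beside 20.5% and 21.7% of all genes. The median log2 fold change was -0.11 over the 52 genes and -0.011 over all genes. With a fold change over 1.5, 0 rose and 7 fell (EIF1AX, EIF4A3, EIF4E, EIF4E2, EIF4EBP2, EIF4EBP3 and EIF5AL1), beside 9.27% and 9.29% of all genes. EIF1AX, EIF2S1, EIF4E, EIF5AL1 and EIF5B fell here and were not called in Met, and EIF3C and EIF4EBP1 likewise rose here alone. Whether these effects differ from those without FK866 is the interaction, which called none of the 52 genes without blocks in limma-trend on all libraries. For EIF4E of these 7 it was called by DESeq2 (adjusted p = 0.0497). For EIF4EBP1 it was called by limma-trend without FK replicate 1 (adjusted p = 0.0437). With blocks of same-numbered libraries the interaction was called higher for 14 and lower for 10, beside 15.5% and 16.5% of all genes. EIF1AX, EIF4E and EIF4EBP1 of these 7 were among them. Under scaling to equal library totals the split was 13 higher and 16 lower, in place of 7 and 17 and beside 24.9% and 17.8% of all genes, and EIF5B was no longer called. With the fold rule that scaling left 0 higher and 3 lower (EIF4E, EIF4EBP2 and EIF5AL1), beside 11.1% and 7.64% of all genes.

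Genes called in both comparisons were EIF1, EIF2D, EIF2S2, EIF4A2 and EIF4B among those that rose, which is 41.7% of the 12 in Met and 71.4% of the 7 from FK to Met+FK. Those that fell in both were EIF1AD, EIF2B1, EIF3B, EIF4A1, EIF4A3, EIF4E2, EIF4EBP2, EIF4EBP3, EIF4G1, EIF4G2, EIF4H and EIF5A, which is 63.2% of 19 and 70.6% of 17. No gene was called in opposite directions, and 40 of 52 estimates had the same sign. These overlaps and signs were not counted over all genes, so they are not read as particular to the 52 genes. Across the 52 genes, the log2 fold changes of the comparisons had Pearson's r of 0.66, beside 0.76 across all genes tested. Genes are not independent replicates, and no p is given. Of the 24 calls, 18 held without any single one of the 6 libraries.

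**Figure D4:**
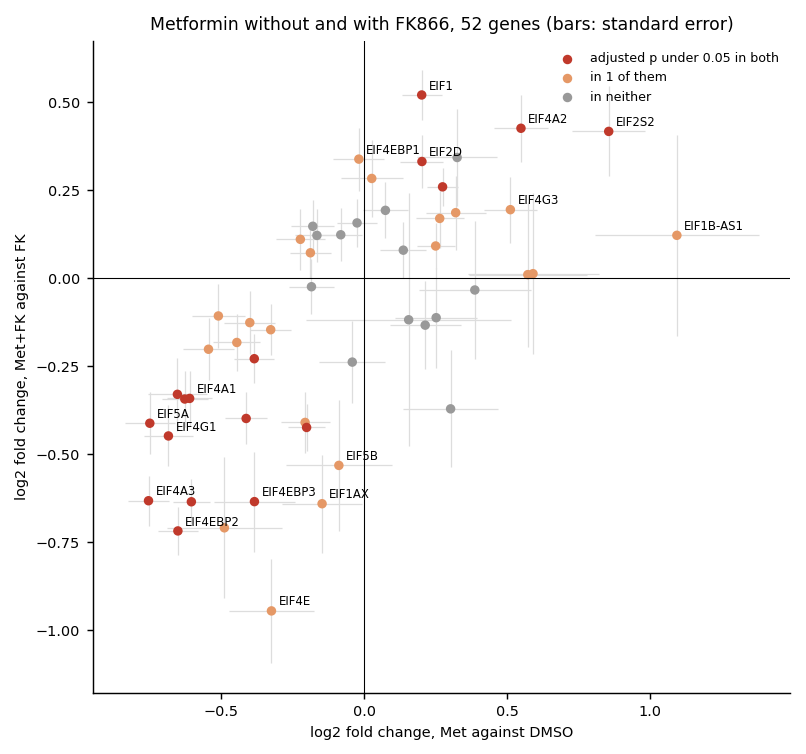
Log2 fold change of the 52 genes in Met against DMSO (x axis) and in Met+FK against FK (y axis), with bars for the standard error and colour for the comparisons in which the adjusted p was under 0.05. EIF2S2, EIF4A2 and EIF1 lie at the upper right, EIF4A3, EIF4EBP2 and EIF5A at the lower left, and EIF4E lowest at -0.95 on the y axis.

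With both drugs against DMSO, 13 genes rose and 19 fell, beside 26.1% and 26.1% of all genes. The median log2 fold change was -0.088 over the 52 genes and 0.014 over all genes. This comparison shares its DMSO libraries with that of Met. With a fold change over 1.5, 3 rose (EIF1B-AS1, EIF2S2 and EIF4A2) and 6 fell (EIF4A3, EIF4E2, EIF4EBP2, EIF4G1, EIF5A and EIF5AL1), beside 13.7% and 11.3% of all genes. Under scaling to equal totals these were 5 higher (EIF1B-AS1, EIF2S2, EIF2S3B, EIF4A2 and EIF4G3) and 5 lower (EIF4A3, EIF4E2, EIF4EBP2, EIF5A and EIF5AL1), beside 17.1% and 9.08% of all genes. EIF4EBP2 fell with a log2 change of -0.86 ± 0.069 (SE, adjusted p = 1.63e-07), EIF4A3 with -0.81 ± 0.070 (SE, adjusted p = 3.35e-07) and EIF4E2 with -0.81 ± 0.064 (SE, adjusted p = 1.44e-07), and EIF2S2 rose with a log2 change of 0.89 ± 0.13 (SE, adjusted p = 4.42e-05). EIF4E fell with a log2 change of -0.56 ± 0.15 (SE, adjusted p = 0.00506). Of the 32 calls, 24 held without any single library. The call of EIF1B-AS1 was lost without DMSO replicate 1 (adjusted p = 0.0650), that of EIF2S1 without DMSO replicate 2, Met+FK replicate 1 or Met+FK replicate 3 (0.113 to 0.222) and that of EIF2D without DMSO replicate 3 or any Met+FK library (0.0791 to 0.192). EIF2A was lost without DMSO replicate 1 or 3 or Met+FK replicate 2 or 3 (adjusted p = 0.0672 to 0.122), EIF2B3 without DMSO replicate 1 or 2 or Met+FK replicate 1 or 2 (0.0541 to 0.0874) and EIF3M without DMSO replicate 1 or 3 or Met+FK replicate 1 or 2 (0.0877 to 0.109). EIF2S3B was lost without any DMSO library or Met+FK replicate 2 or 3 (adjusted p = 0.0591 to 0.163), and EIF4G2 without DMSO replicate 2 or 3 or any Met+FK library (0.0569 to 0.113). EIF3M also changed sign with the trend on GC content and length removed.

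FK866 alone gave called changes under 1.5-fold, upward in some factor genes of low GC content and downward in some of high GC content, and every call was lost without some single library. Against DMSO, 6 genes rose and 8 fell, beside 11.3% and 9.84% of all genes, and 0 passed a fold change over 1.5, beside 3.49% of all genes in either direction. The median log2 fold change was -0.075 over the 52 genes and -0.016 over all genes. EIF5A2 rose with a log2 change of 0.54 ± 0.17 (SE, adjusted p = 0.0372), EIF2A by 0.50 (log2), EIF2S2 by 0.47, EIF4A2 by 0.36, EIF4G3 by 0.34 and EIF4G2 by 0.24. EIF3G fell with a log2 change of -0.35 ± 0.092 (SE, adjusted p = 0.0259), and EIF5A, EIF6, EIF4EBP1, EIF3I, EIF2B4, EIF3K and EIF4A1 fell with log2 changes of -0.29 to -0.24. No call held in every fit that left out 1 of the 6 libraries, with adjusted p between 0.0525 and 0.229 for the lost calls. Without DMSO replicate 1 or without FK replicate 2, 0 genes rose and 0 fell, without DMSO replicate 3 it was 1 and 0, without DMSO replicate 2 it was 14 and 4, and without FK replicate 1 it was 8 and 16.

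Same-numbered DMSO and FK libraries deviated together (correlations of 0.219 to 0.420), and when libraries of one number were fitted as blocks 17 genes rose and 21 fell, beside 23.3% and 21.3% of all genes. GC content moved with these values. The genes that rose had a median GC content of 41.9% and those that fell 55.4%, and the log2 fold change had r = -0.73 with GC content across the 52 genes, beside -0.60 across all genes with a GC value. The slope of a library's log2 values on GC content was 0.043 to 0.196 per 10 percentage points in DMSO and -0.245 to 0.0027 in FK, with FK replicate 2 the lowest of all 12 libraries and DMSO replicates 1 and 3 the highest. After the dependence on GC content and length was removed, r was 0.0039, and 3 genes rose and 4 fell, beside 4.08% and 6.57% of all genes. In Met against DMSO the genes that rose had a median GC content of 41.3% and those that fell 51.3%, with r = -0.50 before and -0.11 after removal, and 9 rose and 24 fell after removal, beside 24.7% and 32.6% of all genes. From FK to Met+FK r was 0.064.

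**Figure D5:**
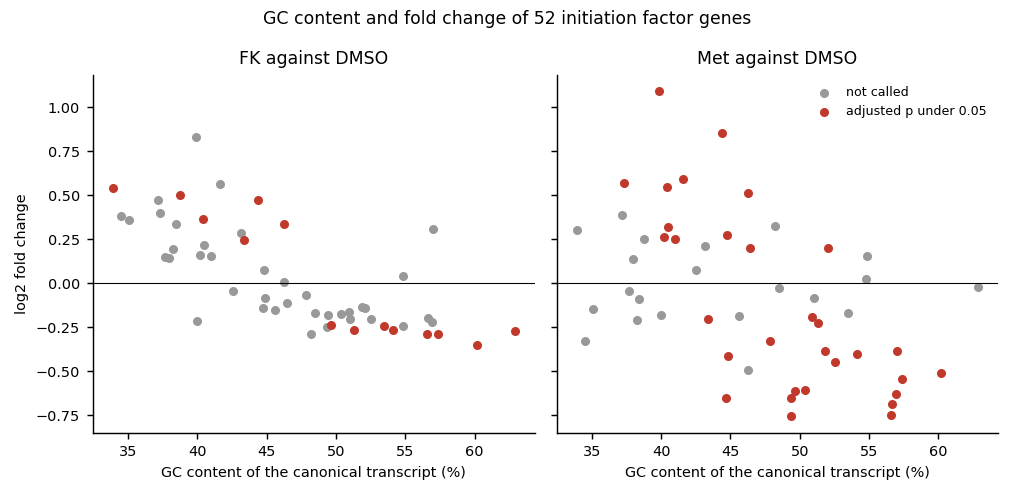
Log2 fold change of the 52 genes against the GC content of the canonical transcript, in FK against DMSO (left) and Met against DMSO (right), with genes of adjusted p under 0.05 in red. In the left panel the values run from upper left to lower right (r = -0.73), and in the right panel the genes that fell lie between 43.4% and 60.2% GC.

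Adding FK866 to metformin left the factor genes without a call, except in fits that took out the trend on GC content and length. From Met to Met+FK, 0 rose and 0 fell in limma-trend, beside 0.0911% and 0.0065% of all genes, and edgeR and DESeq2 on the recovered read pairs also called 0 of the 52, with no adjusted p from DESeq2 for 4 of them. At an unadjusted p under 0.05 there were 4 of the 52, beside 1051 of the 15376 genes tested. The log2 fold changes lay between -0.27 and 0.24, with a median SE of 0.088, and the smallest adjusted p was 0.461. EIF4A2 had a log2 change of 0.24 ± 0.095 (SE, adjusted p = 0.656), EIF4E2 of -0.20 ± 0.064 (SE, adjusted p = 0.461) and EIF4EBP2 of -0.20 ± 0.069 (SE, adjusted p = 0.515). With the trend on GC content and length removed, EIF4A2 was called higher, beside 0.6% of all genes higher and 0.385% lower. With blocks of same-numbered libraries as well, 3 were called higher (EIF1, EIF2A and EIF4A2) and 2 lower (EIF4E2 and EIF4EBP2), beside 2.02% and 1.38% of all genes, while blocks alone gave 0.

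The interaction, which subtracts the FK866 effect seen without metformin from that seen with it, was called for 0 of the 52 genes in limma-trend, beside 0.0585% of all genes in either direction. At an unadjusted p under 0.05 there were 21 of the 52, beside 4695 of the 15376 genes tested. The edgeR fit called 0 and DESeq2 called 2, EIF4E and EIF5A2, with no adjusted p for 5. The smallest adjusted p values belonged to EIF1 at 0.32 ± 0.10 (SE, adjusted p = 0.111) and EIF3G at 0.40 ± 0.13 (SE, adjusted p = 0.111). EIF4E had -0.62 ± 0.21 (SE, adjusted p = 0.112) and EIF5A2 -0.67 ± 0.23 (SE, adjusted p = 0.112). Of the 24 genes called with blocks, the lowest adjusted p was that of EIF4E, at 0.00916. With blocks and the trend on GC content and length removed 7 were called, EIF4E not among them, and without FK replicate 1 and without blocks 12 of the 52. No share of all genes was counted for these last fits, so their counts are not read as particular to the 52 genes.

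Other genes of translation were read from 4 lists, whose counts stand beside all genes at 24.9% higher and 25.9% lower in Met, 11.3% and 9.84% in FK and 20.5% and 21.7% from FK to Met+FK. Of 12 elongation and termination genes, 1 rose and 2 fell in Met, 1 rose and 1 fell in FK, and 4 rose and 3 fell from FK to Met+FK. EEF1A1, the tRNA carrier of elongation, rose in Met with a log2 change of 0.43 ± 0.064 (SE, adjusted p = 8.08e-05), from 374074 ± 19728 to 502554 ± 16601 normalized counts (SD, n = 3). Of 17 partners of initiation outside the EIF names, 6 rose and 2 fell in Met, 4 rose and 1 fell in FK, and 7 rose and 3 fell from FK to Met+FK. PDCD4, an inhibitor of eIF4A, rose in Met from 766 ± 63.5 to 1785 ± 198 (SD, n = 3), a log2 change of 1.22 ± 0.15 (SE, adjusted p = 1.14e-05). MKNK2, a kinase of eIF4E, rose from 3117 ± 258 to 5773 ± 299, a log2 change of 0.89 ± 0.077 (SE, adjusted p = 4.64e-07).

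Of 10 genes of the TOR arm, 1 rose and 3 fell in Met, 0 rose and 1 fell in FK, and 3 rose and 1 fell from FK to Met+FK. RPS6KB2, a kinase of ribosomal protein S6, fell in Met from 2241 ± 27.6 to 1399 ± 109 (SD, n = 3), a log2 change of -0.68 ± 0.090 (SE, adjusted p = 2.37e-05). Of 9 eIF2 alpha kinase and phosphatase genes, 2 rose and 3 fell in Met, 5 rose and 1 fell in FK, and 1 rose and 4 fell from FK to Met+FK. PPP1R15A, which directs a phosphatase to eIF2 alpha, rose in Met from 1349 ± 149 to 3067 ± 374, a log2 change of 1.18 ± 0.10 (SE, adjusted p = 2.89e-07). None of the 4 lists held a call from Met to Met+FK. PPP1R15A came nearest, from 3067 ± 374 in Met to 4341 ± 185 in Met+FK (SD, n = 3), a log2 change of 0.51 ± 0.098 (SE, adjusted p = 0.0686). The median log2 fold changes in Met were -0.064, 0.22, -0.012 and 0.13 for the lists in this order, beside 0.012 over all genes.

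Of the 52 genes, 29 overlap another gene of the table, each of them one on the opposite strand. The strand setting of the counting was not given in the sources used here, so reads of such neighbours may be shared. EIF2S2 lies opposite RALY, whose mean over all libraries was 5069 against 8340 for EIF2S2, EIF3B opposite SNX8 (1799 against 16872), EIF4A2 opposite RFC4 (1616 against 14693) and EIF5A opposite GPS2 (1953 against 36780). EIF2B1 lies opposite GTF2H3 and DDX55 (1968 and 1366 against 2348). For 4 genes an opposite neighbour had the higher mean, namely SERP1 for EIF2A (4383 against 3818), SRA1 for EIF4EBP3, DRG1 for EIF4ENIF1 (3955 against 1380) and CTDSPL2 for EIF3J-DT (1275 against 165). EIF4A1, EIF4A3, EIF4G1, EIF4G3 and EIF4EBP2 overlap no other gene of the table.

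Promoter sequence was compared for the 44 genes with an entry in the RefSeq promoter table (GRCh38.p14, 250 bases before to 50 after the start). The E-box CACGTG, which reads the same on both strands and is bound by MYC and related factors, was in 12 of the 44 (27.3%), beside 7.43% of 27305 promoters and 10.0% of 10829 promoters of genes tested. EIF1B and EIF1B-AS1 share 1 site, which is counted for both, so the matches lie at 14 distinct sites. It was in 2 of 10 that rose, 5 of 18 that fell and 5 of 16 not called in Met. TGATGNAA, the core of the element bound by C/EBP and ATF factors, and TGACGTCA, the cAMP response element, were searched on both strands and were in 0 of the 44 windows, beside 3.67% and 1.98% of all promoters and 1.76% and 3.25% of those of genes tested. The motifs do not overlap each other in these windows, and the absence of a match says only that these letters are not in the window.

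Upstream sequence is printed for EIF4A3 and EIF4G1, which fell and carry the E-box, for EIF1B, which carries it and was not called, and for EIF5A, which fell and lacks it. The stretches are 5′ to 3′ along the gene, end before the gene's span in the deposited table, and show the E-box in capitals. They are chr17:80147152-80147378 on the minus strand for EIF4A3, with the E-box at -121 from the start in RefSeq, chr3:184314356-184314494 on the plus strand for EIF4G1, with the E-box at -144 and another at -67 outside the stretch, chr3:40309457-40309706 on the plus strand for EIF1B, with the E-box at -54, and chr17:7306749-7306998 on the plus strand for EIF5A.
EIF4A3: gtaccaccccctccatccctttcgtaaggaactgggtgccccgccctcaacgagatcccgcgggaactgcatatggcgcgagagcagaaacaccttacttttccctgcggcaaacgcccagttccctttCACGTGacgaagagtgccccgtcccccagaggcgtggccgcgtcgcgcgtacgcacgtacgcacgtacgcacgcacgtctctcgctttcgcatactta
EIF4G1: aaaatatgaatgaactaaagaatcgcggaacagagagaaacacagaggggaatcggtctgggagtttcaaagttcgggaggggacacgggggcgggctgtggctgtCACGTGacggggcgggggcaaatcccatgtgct
EIF1B: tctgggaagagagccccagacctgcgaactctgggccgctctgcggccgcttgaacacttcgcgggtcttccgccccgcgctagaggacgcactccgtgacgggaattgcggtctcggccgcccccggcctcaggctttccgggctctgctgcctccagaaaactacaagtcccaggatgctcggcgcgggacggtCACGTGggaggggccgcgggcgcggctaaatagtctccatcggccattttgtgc
EIF5A: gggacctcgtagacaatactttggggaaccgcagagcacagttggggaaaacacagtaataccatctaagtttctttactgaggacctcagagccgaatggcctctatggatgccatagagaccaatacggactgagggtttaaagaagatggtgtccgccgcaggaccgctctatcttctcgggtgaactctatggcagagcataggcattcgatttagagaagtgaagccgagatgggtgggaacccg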

How the data were processed

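RNA-seq was done on 12 libraries of KP4 cells, 3 for each of DMSO, Met, FK and Met+FK. By the study's methods, the authors used cutadapt for trimming, STAR for alignment (hg38) and featureCounts for pairs per gene, and then divided the counts by DESeq2 size factors. The deposited values are therefore a signal without negative values, normalized counts. The annotation and strand setting are not given in the sources used here. Positions are those of the deposited table, counted from 1. Dividing by each library's smallest step gave whole read pairs within 0.01 for 100% of values, with size factors of 0.867 to 1.21 and 30667735 to 41052203 read pairs per library. Precision comes from the spread between libraries, so no counting intervals were computed. Replicates differed by more than sampling noise. The labels do not say whether replicates were separate cultures, so p-values measure the spread between these libraries, which may be technical.

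limma-trend (limma 3.58.1, R 4.3.3) was fitted on log2(normalized count + 1) to all 12 libraries and 15376 genes with a mean of at least 10, with 1 mean per treatment and Benjamini-Hochberg adjustment over all genes. Fold changes on this scale understate those of low genes. The tests were tried on simulated data. The 52 members, the gene lists and the tests were chosen with earlier results of these data known. Genes named with every library's value were those with an adjusted p under 0.05 and a fold over 1.5 in any comparison, the 5 largest and 5 smallest log2 fold changes in Met against DMSO, the 2 smallest interaction p-values, EIF4EBP1, EIF2S1, EIF4E and the members of the 6 paralogue pairs. Other members are given by counts and as examples of their role group. Paralogue ratios were tested by exact permutation in Python 3.11.15. GC content and length are those of 1 canonical transcript per gene. Replicate numbers were taken to pair groups where every same-numbered pair of libraries correlated above 0.1 in deviation from its group mean, which held for DMSO with FK (0.219 to 0.420) and Met with Met+FK (0.171 to 0.226, and 0.0748 to 0.160 with the GC and length trend removed). Promoter sequence came from RefSeq (GRCh38.p14). One marker gene is not reported here.

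Alternatives were edgeR 4.0.16 and DESeq2 1.42.0 on the recovered read pairs, other scalings, filters and pseudocounts, a replicate block, removal of the GC and length trend, and each library left out. Over all genes, edgeR called 4134 higher and 3669 lower in Met against DMSO and 1961 and 1062 in FK against DMSO.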

Additional observations from a re-analysis of the deposited data

How the results depend on the processing

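The counts of called genes depended on the scaling, the fold rule and, for FK against DMSO, on single libraries. Requiring a fold change over 1.5 left 3 higher and 8 lower in Met against DMSO, 3 and 6 in Met+FK against DMSO, 0 and 7 in Met+FK against FK and 0 and 0 in FK against DMSO. Scaling to equal totals gave 19 higher in Met against DMSO and 13 higher in Met+FK against FK. FK against DMSO had 0 higher and 0 lower when only its 6 libraries were fitted, 3 higher and 4 lower with the GC and length trend removed, 4 lower with TMM scaling, 2 lower in edgeR and 1 lower when all genes with any value above 0 were tested. DESeq2 gave more calls there than the main fit, 8 higher and 11 lower in place of 6 and 8. Shares of all genes were not counted for FK against DMSO with only its libraries, TMM scaling, DESeq2 or all genes with any value. Removing the trend gave 13 higher in Met+FK against FK and 1 higher, EIF4A2, in Met+FK against Met. For Met+FK against FK no share of all genes was counted in that fit. Removing the trend also turned EIF3H in Met against DMSO to -0.014 and EIF3M in Met+FK against DMSO to -0.036, with or without the block. DESeq2 called 2 interactions. The cause of these differences was not tested.

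Replicate numbers as a block gave 17 higher and 21 lower in FK against DMSO, 13 higher in Met+FK against FK and 24 interactions. With the block and the trend removed there were 16 higher in Met+FK against FK, 3 higher (EIF1, EIF2A and EIF4A2) and 2 lower (EIF4E2 and EIF4EBP2) in Met+FK against Met, and 7 interactions. Same-numbered libraries correlated above 0.1 in every pair for DMSO with FK and for Met with Met+FK, and not for the other comparisons. With the trend removed this held for DMSO with FK (0.132 to 0.176) and Met with FK (0.115 to 0.147) and no longer for Met with Met+FK (0.0748 to 0.160). The counts with block and trend together therefore rest there on a pairing that does not meet this rule. With the trend removed, same-numbered libraries correlated at 0.0714 to 0.135 for DMSO with Met and 0.0552 to 0.0920 for FK with Met+FK. In both, every different-numbered pair had a negative correlation. Deviations from a group mean cancel within the group, so positive same-numbered correlations come with negative ones elsewhere. The negative values are therefore no separate sign of pairing. A weaker pairing in these comparisons is possible from the same-numbered correlations alone. In Met against DMSO the block gave 18 higher and 25 lower, and in Met+FK against DMSO 15 and 21. Shares of all genes were not counted for these fits, nor for Met+FK against FK with the block, with or without the trend. In FK against DMSO the block raised the shares of all genes from 11.3% higher and 9.84% lower to 23.3% and 21.3%. Counts without such a share are therefore not read as particular to the factor genes.

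Leaving out single libraries gave ranges of 7 to 13 higher and 15 to 24 lower in Met against DMSO (7 without DMSO replicate 3 or Met replicate 1), 0 to 14 and 0 to 16 in FK against DMSO, 9 to 14 and 16 to 20 in Met+FK against DMSO, 5 to 11 and 13 to 18 in Met+FK against FK (11 without FK replicate 1), 0 in Met+FK against Met, and 0 to 12 interactions (12 without FK replicate 1). In FK against DMSO the number lower also fell to 1 without Met replicate 1, FK replicate 3 or Met+FK replicate 1, to 4 without Met+FK replicate 2 and to 5 without Met replicate 2 or Met+FK replicate 3. Shares of all genes were not counted in the fits that left out a library. The paralogue differences ranged from -0.25 to -0.19 for EIF1B/EIF1, 0.89 to 1.05 for EIF4A2/EIF4A1, 0.47 to 0.69 for EIF5A2/EIF5A (0.69 and past the threshold without FK replicate 2), 0.85 to 1.01 for EIF4G3/EIF4G1, -0.085 to 0.067 for EIF4E2/EIF4E and -0.89 to -0.80 for EIF4EBP2/EIF4EBP1. With same-numbered libraries moved together, an alternative chosen after seeing the data, the differences of -0.23 (EIF1B/EIF1), 0.96 (EIF4A2/EIF4A1), 0.92 (EIF4G3/EIF4G1) and -0.84 (EIF4EBP2/EIF4EBP1) were as before but could not pass, as the smallest p of 20 arrangements is 0.1. EIF4E2/EIF4E turned to -0.037 without DMSO replicate 2, -0.060 without Met replicate 3, -0.085 without FK replicate 2 and -2.09e-05 without Met+FK replicate 3. Without and with FK866 the differences were -0.13 and -0.33 for EIF1B/EIF1, 1.05 and 0.041 for EIF5A2/EIF5A, 1.20 and 0.64 for EIF4G3/EIF4G1, -0.28 and 0.31 for EIF4E2/EIF4E and -0.63 and -1.06 for EIF4EBP2/EIF4EBP1. Over the named gene values, 2197 of the alternatives kept direction and side of the threshold, 304 lost the call, 21 gained one and 4 changed sign.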
